A study of Homo sapiens with 12 samples.

Results

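The 41 genes described here encode the cell cycle engine and its brakes: 8 cyclins, 5 cyclin-dependent kinases (CDKs), 8 CDK inhibitors, 3 pocket proteins of the RB family, 8 E2F transcription factors, their 2 DP partners, the 3 CDC25 phosphatases, the 2 kinases WEE1 and PKMYT1 that hold CDK1 inactive, and the ubiquitin ligase receptors SKP2 and FBXW7. They were chosen by gene name, as the core members of these families, and all 41 are among the 23064 gene symbols of the count tables. Their RNA was measured by bulk RNAseq in 12 libraries of 2 human bladder carcinoma cell lines, CAL-29 and 5637, on day 3 after transfection with a control siRNA (siCtrl) or with siKMT9α#1, an siRNA against N6AMT1, with 3 libraries in each of the 4 groups. N6AMT1 encodes KMT9α, the catalytic subunit of the histone methyltransferase KMT9. Both lines are recorded as wild type, so that the knockdown was transient and made in unmodified cells. CAL-29 cells received 50 nM siRNA with the reagent RNAiMAX and 5637 cells 90 nM with DharmaFECT 3, so that cell line, siRNA dose and reagent cannot be told apart in any difference between the lines. Only siKMT9α#1 was analysed here, and the labels do not say whether the 3 libraries of a group came from separate cultures, so that the p-values measure the spread between these libraries, which may be technical.

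Cyclins activate CDKs, and the order in which cyclin-CDK pairs appear drives the cell from one phase to the next. Cyclin D with CDK4 or CDK6 and then cyclin E with CDK2 phosphorylate RB and its relatives, which releases E2F factors to transcribe the genes of DNA replication. Cyclin A and cyclin B with CDK1 then carry the cell into mitosis, a step that WEE1 and PKMYT1 block and CDC25 phosphatases allow. The inhibitors of the CIP/KIP family (CDKN1A, CDKN1B, CDKN1C) bind several cyclin-CDK pairs, and those of the INK4 family (CDKN2A to CDKN2D) bind CDK4 and CDK6. Loss of RB1, deletion of the CDKN2A locus and gain of E2F3 are recurrent in bladder carcinoma.

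The target of the siRNA and the sites in the 41 genes that match its seed are printed here, since the seed (positions 2 to 8 of the guide strand) is the part of an siRNA that also pairs with the 3′ untranslated regions (3′ UTRs) of other transcripts. The N6AMT1 target is in exon 3 of 8, in the coding sequence, at chr21:30254500-30254524 (GRCh37, minus strand). Capitals mark the 7 bases ACATTCA that pair with the seed, each line is written 5′ to 3′, and all coordinates are those of GRCh37.
N6AMT1, the target: acgctgtaacaaagttcACATTCAa
CDK6, first site, chr7:92239449-92239473, minus strand: tctttctaaACATTCAcactgtcct
CDK6, second site, chr7:92235650-92235674, minus strand: gacctagccACATTCAtctagagat
TFDP2, chr3:141669769-141669793, minus strand: gaaagaaaaACATTCAactttagct
CCNA2, chr4:122738379-122738403, minus strand: caaattctgACATTCAttttcctaa
CDKN2A, chr9:21967914-21967938, minus strand: cctaagcgcACATTCAtgtgggcat
These sites lie in the last exon of each gene, in the longest annotated 3′ UTR (gencode.v44lift37). E2F5 also holds 1 site there, and the other 36 genes hold none. CDK6 and CCNA2 keep their sites in the shortest annotated 3′ UTR, which in each is as long as the longest (10219 and 1194 bases). TFDP2, CDKN2A and E2F5 hold theirs in the longest and not in the shortest, and 3′ UTRs of lengths in between were not searched.

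The siRNA lowered its target in both lines. Levels are counts-per-million values (CPM), scaled by the TMM method. N6AMT1 had 11.4, 10.2 and 9.68 CPM in the 3 siCtrl libraries of CAL-29 and 2.82, 2.93 and 1.99 CPM in the siKMT9α#1 libraries. In 5637 the values were 13.4, 13.2 and 13.3 CPM with siCtrl and 3.75, 2.22 and 2.56 CPM with siKMT9α#1. The remaining level was thus 24.7% of control in CAL-29 (log2 fold change -2.00, SE 0.15, where SE is the standard error) and 21.4% in 5637 (log2 fold change -2.23, SE 0.12). The kept transcripts summed to between 24479348.5 and 35151256.5 counts per library. Among replicates, the siCtrl library 1 of CAL-29 stood apart from the other two of its group (chi-square per degree of freedom of 8.56 and 12.9, against 3.41 for the other pair of that group). All 7 epithelial markers looked up had enough counts to be tested, and 6 fell past the threshold (p below 1e-06, given below) in each line. Their median log2 fold changes were -0.77 in CAL-29 and -0.54 in 5637. The marker that did not pass was KRT7 in CAL-29 (log2 fold change 0.28) and KRT19 in 5637 (-0.12). KRT7 fell in 5637 (-0.96). Of 11 markers of fibroblasts, endothelium, muscle and blood cells, 5 in CAL-29 and 4 in 5637 had enough counts to be tested, and CDH5 was the only one past the threshold, with opposite signs in the lines (log2 fold changes of 2.48 and -4.91). Their part in the values below was not tested.

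In both lines more genes of the cell cycle engine rose than fell. The threshold for a differentially expressed gene (DEG) was that of the study, an unadjusted p below 1e-06, here in edgeR's quasi-likelihood test. In CAL-29, 39 of the 41 genes could be tested, of which 20 were upregulated, 3 were downregulated and 16 did not pass. Of all 14673 genes tested in CAL-29, 30.0% passed, 15.0% upward and 15.0% downward. In 5637 all 41 genes could be tested, of which 17 were upregulated, 5 were downregulated and 19 did not pass. Of all 14335 genes tested in 5637, 35.6% passed, 18.0% upward and 17.6% downward. The median log2 fold change of the engine genes was 0.37 in CAL-29 and 0.26 in 5637, against -0.02 and -0.01 over all genes tested. At an adjusted p below 0.05 the counts were 28 up and 7 down in CAL-29 and 25 up and 8 down in 5637, where 69.5% (34.3% up, 35.2% down) and 70.7% (35.1% up, 35.6% down) of all genes passed. Past 1e-06 and beyond 0.58 on the log2 scale, 16 were up and 3 down in CAL-29 and 7 up and 4 down in 5637, against 21.5% and 17.9% of all genes in either direction. The siKMT9α#1 libraries lay wholly above or below the siCtrl libraries for 35 of the 39 genes in CAL-29 and 32 of the 41 in 5637, against 72.3% and 72.4% of all genes. Without the siCtrl library 1 of CAL-29 the counts were 21 up and 6 down, with CCND1 added to the first and CCNE2, CDKN1C and RB1 to the second.

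**Figure D1:**
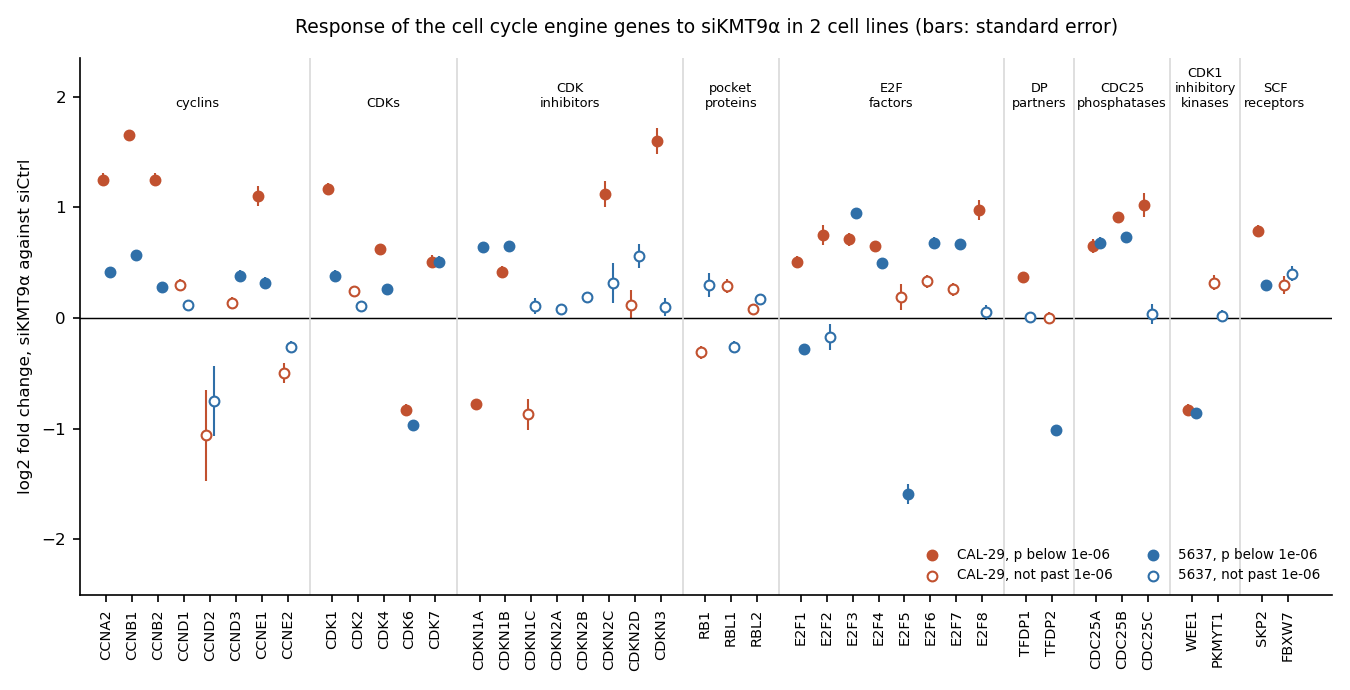
Log2 fold change of siKMT9α#1 against siCtrl (y axis, no unit) for each of the 41 genes (x axis, grouped by role), in CAL-29 (orange) and 5637 (blue), with bars for 1 SE and filled points for p below 1e-06. Cyclins A and B, CDK1 and CDKN3 reach the highest values in CAL-29, CDK6 and WEE1 lie below 0 in both lines, and E2F5 and TFDP2 lie below 0 in 5637 and near 0 in CAL-29.

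Of the 39 genes tested in both lines, 13 were upregulated in both and 2, CDK6 and WEE1, were downregulated in both. The 13 were CCNA2, CCNB1, CCNB2, CCNE1, CDK1, CDK4, CDK7, CDKN1B, E2F3, E2F4, CDC25A, CDC25B and SKP2. Among all 13674 genes tested in both lines, 1155 were upregulated in both and 1161 downregulated in both. E2F1 was upregulated in CAL-29 and downregulated in 5637, and CDKN1A went the opposite way. A further 6 engine genes passed in CAL-29 and not in 5637, 5 passed in 5637 and not in CAL-29, and 11 passed in neither. Among the 13674 genes, 113 were up in CAL-29 and down in 5637, 127 the reverse, 1683 passed in CAL-29 alone, 2457 in 5637 alone and 6978 in neither. A pass in 1 line alone does not show that the lines differ in these genes.

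The cyclins of S phase and mitosis rose in both lines, and by more in CAL-29. CCNB1, the cyclin B that activates CDK1 for mitotic entry, had 46, 50.6 and 51.1 CPM in the siCtrl libraries of CAL-29 and 151, 157 and 156 CPM in the siKMT9α#1 libraries. In 5637 its libraries held 72.1, 77.1 and 77.4 CPM with siCtrl and 114, 119 and 104 CPM with siKMT9α#1. All siKMT9α#1 libraries thus lay above all siCtrl libraries of their line, and the log2 fold change was 1.65 (SE 0.05, adjusted p = 1.44e-16) in CAL-29 and 0.57 (SE 0.04, adjusted p = 2.45e-12) in 5637. CCNA2, the cyclin A that partners CDK2 in S phase and CDK1 afterwards, went from 30.4, 32.3 and 33 CPM to 75.9, 79.2 and 72.7 CPM in CAL-29 (log2 fold change 1.25, adjusted p = 5.69e-14). In 5637 it went from 60.6, 58.3 and 58.6 CPM to 78.6, 76.7 and 82.2 CPM (log2 fold change 0.42, adjusted p = 3.54e-10), and its 3′ UTR holds the seed match printed above. The second cyclin B, CCNB2, rose by 1.25 on the log2 scale in CAL-29 and by 0.28 in 5637. In bulk RNA a larger share of cells in a phase and more RNA per cell cannot be told apart, for these genes or for any below.

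CCNE1, the cyclin E that drives entry into S phase, had 13.4, 14.2 and 13.2 CPM with siCtrl and 30.4, 31.9 and 25 CPM with siKMT9α#1 in CAL-29, a log2 fold change of 1.10 (SE 0.09, adjusted p = 7.11e-10). In 5637 the values were 34.8, 32.5 and 32.3 CPM and 41.1, 42.8 and 40.6 CPM, a log2 fold change of 0.32 (SE 0.05, adjusted p = 2.08e-06). In 5637 the calls of CCNE1 and CCNB2 were just inside the threshold and were lost on leaving out any 1 of 5 of the 6 libraries, with log2 fold changes of 0.30 to 0.36 and 0.26 to 0.32. The related CCNE2 did not pass in either line, with log2 fold changes of -0.50 in CAL-29 and -0.26 in 5637. In CAL-29 all its siKMT9α#1 libraries, at 14.6 to 17.1 CPM, lay below the siCtrl libraries, at 20.4 to 24.7 CPM. INTS8 and another gene on the opposite strand overlap 37.1% of the exon bases of CCNE2, and the counting is not stated to use strand.

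Of the D cyclins, which couple growth signals to CDK4 and CDK6, none passed in CAL-29 and 1 in 5637. CCND3 rose in 5637 (log2 fold change 0.38, adjusted p = 2.19e-07) and had a log2 fold change of 0.14 in CAL-29, which did not pass. CCND1 did not pass in either line, at 562 to 583 CPM with siCtrl against 695 to 710 CPM with siKMT9α#1 in CAL-29 and at 386 to 394 CPM against 416 to 436 CPM in 5637. CCND2 was close to the limit of detection at 0.227 to 1.01 CPM over the 12 libraries, and its log2 fold changes of -1.06 and -0.75 had SEs of 0.41 and 0.32.

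Among the kinases, CDK1 rose and CDK6 fell in both lines. CDK1, the mitotic kinase, had 61.8, 59.7 and 69.8 CPM with siCtrl and 142, 146 and 142 CPM with siKMT9α#1 in CAL-29 (log2 fold change 1.17, SE 0.05, adjusted p = 9.55e-14). In 5637 it had 54.1, 49.8 and 54.1 CPM with siCtrl and 65.8, 71.2 and 69.3 CPM with siKMT9α#1 (log2 fold change 0.38, SE 0.05, adjusted p = 1.3e-08). No siKMT9α#1 library overlapped the siCtrl libraries in either line.

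CDK6, a kinase of G1 phase, is the member with 2 seed matches in its 3′ UTR, and it fell in both lines. Its values in CAL-29 were 299, 278 and 298 CPM with siCtrl and 174, 156 and 162 CPM with siKMT9α#1, a remaining level of 56.2% (log2 fold change -0.83, SE 0.05, adjusted p = 8.46e-12). In 5637 they were 266, 261 and 250 CPM with siCtrl and 136, 131 and 130 CPM with siKMT9α#1, a remaining level of 51.1% (log2 fold change -0.97, SE 0.03, adjusted p = 3.66e-20). The other G1 kinase, CDK4, rose instead, by 0.62 on the log2 scale in CAL-29 (from 176, 191 and 197 CPM to 289, 293 and 283 CPM) and by 0.26 in 5637 (from 245, 256 and 254 CPM to 293, 309 and 301 CPM). CDK4 has 1 transcript in the count tables. Its call in 5637 was lost in the fit on counts summed over the transcripts of every gene, at a log2 fold change of 0.26 as before. TSPAN31, on the opposite strand, overlaps 44.2% of the exon bases of CDK4. CDK7, which activates other CDKs, rose by 0.51 in each line, and CDK2, the partner of cyclins E and A, did not pass in either line (log2 fold changes of 0.24 and 0.11).

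The CDK inhibitors moved in different directions. CDKN1A, which encodes p21, an inhibitor known as a target of p53, had 285, 292 and 299 CPM with siCtrl and 175, 170 and 165 CPM with siKMT9α#1 in CAL-29, a remaining level of 58.2% (log2 fold change -0.78, SE 0.05, adjusted p = 4.37e-12). In 5637 it had 198, 204 and 192 CPM with siCtrl and 290, 323 and 313 CPM with siKMT9α#1, or 156% of control (log2 fold change 0.64, SE 0.04, adjusted p = 3.08e-15). The groups did not overlap in either line and lay in opposite order. CDKN1B, which encodes p27, rose in both lines, from 89.4, 100 and 94.7 CPM to 126, 126 and 127 CPM in CAL-29 (log2 fold change 0.42) and from 57.3, 60.6 and 62.4 CPM to 94.1, 92 and 96.7 CPM in 5637 (log2 fold change 0.65). CDKN1C, which encodes p57, had 9.55, 9.61 and 11.4 CPM with siCtrl and 5.91, 6.46 and 4.22 CPM with siKMT9α#1 in CAL-29, a log2 fold change of -0.87 whose p of 3.94e-06 missed the threshold (adjusted p = 1.17e-05). Without the siCtrl library 1 it was -0.91 and passed. In 5637 its log2 fold change was 0.11 (adjusted p = 0.171).

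CDKN3 encodes a phosphatase that removes an activating phosphate from CDKs, and its RNA is known to peak with that of the mitotic genes. It had 4.16, 3.91 and 4.72 CPM with siCtrl and 11.7, 13.3 and 13.8 CPM with siKMT9α#1 in CAL-29, or 304% of control (log2 fold change 1.60, SE 0.12, adjusted p = 2.03e-10). In 5637 it had 13.2, 12.4 and 13.7 CPM with siCtrl against 13.5, 14.8 and 13.9 CPM with siKMT9α#1, ranges that overlap (log2 fold change 0.10, adjusted p = 0.228).

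Of the INK4 inhibitors, CDKN2C (p18) rose in CAL-29, from 5.18, 5 and 5.48 CPM to 11, 10.6 and 12.5 CPM (log2 fold change 1.12, SE 0.12, adjusted p = 2.85e-08). In 5637 it stayed at 1.59 to 2.7 CPM over the 6 libraries, with a log2 fold change of 0.32 (SE 0.18, adjusted p = 0.12), and a gene on the opposite strand overlaps 20.4% of its exon bases. CDKN2D (p19) had a log2 fold change of 0.12 in CAL-29 and 0.56 in 5637, where 4.32 to 4.91 CPM with siCtrl compare with 6.43 to 7.31 CPM with siKMT9α#1, and passed in neither. CDKN2A and CDKN2B had no count in any of the 6 CAL-29 libraries and are described with the control levels below. In 5637 their log2 fold changes were 0.08 and 0.19, and neither passed.

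None of the 3 pocket proteins, which bind E2F factors and repress their targets, passed the threshold in either line. RB1 had 45, 48.5 and 50.2 CPM with siCtrl and 39.4, 38.7 and 38.3 CPM with siKMT9α#1 in CAL-29, where the groups did not overlap (log2 fold change -0.31, adjusted p = 9.65e-05). Without the siCtrl library 1 of CAL-29 the log2 fold change was -0.35 and passed. In 5637 RB1 had 4.88, 5.14 and 5.11 CPM with siCtrl and 5.85, 6.94 and 5.81 CPM with siKMT9α#1 (log2 fold change 0.30, adjusted p = 0.0214). RBL1 (p107) had log2 fold changes of 0.29 in CAL-29 and -0.26 in 5637, and RBL2 (p130) of 0.08 and 0.17.

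Among the E2F factors only rises passed the threshold in CAL-29, while both directions passed in 5637. Of the 8 factors, 5 were upregulated and none was downregulated in CAL-29 (E2F1, E2F2, E2F3, E2F4 and E2F8), whereas in 5637 4 were upregulated (E2F3, E2F4, E2F6 and E2F7) and 2 were downregulated (E2F1 and E2F5). The other 3 in CAL-29 (E2F5, E2F6 and E2F7) had adjusted p of 0.163, 1.22e-04 and 6.61e-04, and at an unadjusted p below 0.05 no factor fell there.

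E2F1, the activator best known for driving S phase genes, had 64.2, 69.3 and 66.8 CPM with siCtrl and 96.7, 91.7 and 96.1 CPM with siKMT9α#1 in CAL-29 (log2 fold change 0.51, SE 0.05, adjusted p = 1.43e-08). In 5637 it had 83.4, 80.9 and 87 CPM with siCtrl and 65.5, 70.9 and 70.2 CPM with siKMT9α#1 (log2 fold change -0.28, SE 0.04, adjusted p = 8.03e-07). The groups did not overlap in either line, and the call in 5637 was lost on leaving out any library but siCtrl replicate 2, with log2 fold changes of -0.31 to -0.25. E2F2, also an activator, rose in CAL-29 from 12.5, 13.1 and 15.5 CPM to 23.5, 22.1 and 23.5 CPM (log2 fold change 0.75) and had a log2 fold change of -0.17 in 5637 (adjusted p = 0.216).

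E2F3, the third activator, had the highest log2 fold change of the 41 genes in 5637. Its libraries there held 547, 519 and 520 CPM with siCtrl and 1027, 1003 and 1032 CPM with siKMT9α#1, or 193% of control (log2 fold change 0.95, SE 0.03, adjusted p = 3.85e-21). In CAL-29 they held 54, 48.5 and 44.5 CPM with siCtrl and 81.5, 81.6 and 77.1 CPM with siKMT9α#1, or 163% of control (log2 fold change 0.71, SE 0.06, adjusted p = 1.97e-09).

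E2F4 and E2F5 act mainly as repressors with the pocket proteins, and they went different ways. E2F4 rose in both lines, by 0.65 on the log2 scale in CAL-29 and by 0.50 in 5637. E2F5 had 17.2, 20.5 and 19.2 CPM with siCtrl and 6.48, 6.02 and 6.34 CPM with siKMT9α#1 in 5637, a remaining level of 33.1% and the lowest log2 fold change of the 41 genes there (-1.59, SE 0.09, adjusted p = 9.43e-16). In CAL-29 it had 6.12, 6.84 and 5.78 CPM with siCtrl and 7.46, 6.65 and 7.36 CPM with siKMT9α#1, which overlap (log2 fold change 0.19, adjusted p = 0.163). Genes on the opposite strand overlap 18.8% of its exon bases. E2F6, a repressor that works without pocket proteins, rose in 5637 by 0.68, and E2F7, one of the atypical repressors that bind DNA without a DP partner, rose there by 0.67. Their log2 fold changes in CAL-29 were 0.33 and 0.26 and did not pass. E2F8, the other atypical factor, rose in CAL-29 from 8.32, 8.4 and 9.22 CPM to 16.7, 17.3 and 17.2 CPM (log2 fold change 0.98) and stood at 14.8 to 15.2 CPM with siCtrl and 15 to 16.2 CPM with siKMT9α#1 in 5637.

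Of the DP partners, with which the classical E2F factors bind DNA, TFDP2 fell in 5637 from 92.6, 91.4 and 93.4 CPM to 48.2, 46.6 and 43.5 CPM, a remaining level of 49.8% (log2 fold change -1.01, SE 0.04, adjusted p = 2.64e-18). In CAL-29 it had 95.8, 94.8 and 98 CPM with siCtrl and 90.7, 98.1 and 98.9 CPM with siKMT9α#1, so that the groups overlapped and the difference was within the spread of the libraries (log2 fold change -0.00, SE 0.05). TFDP1 rose by 0.37 on the log2 scale in CAL-29 and had a log2 fold change of 0.01 in 5637.

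**Figure D2:**
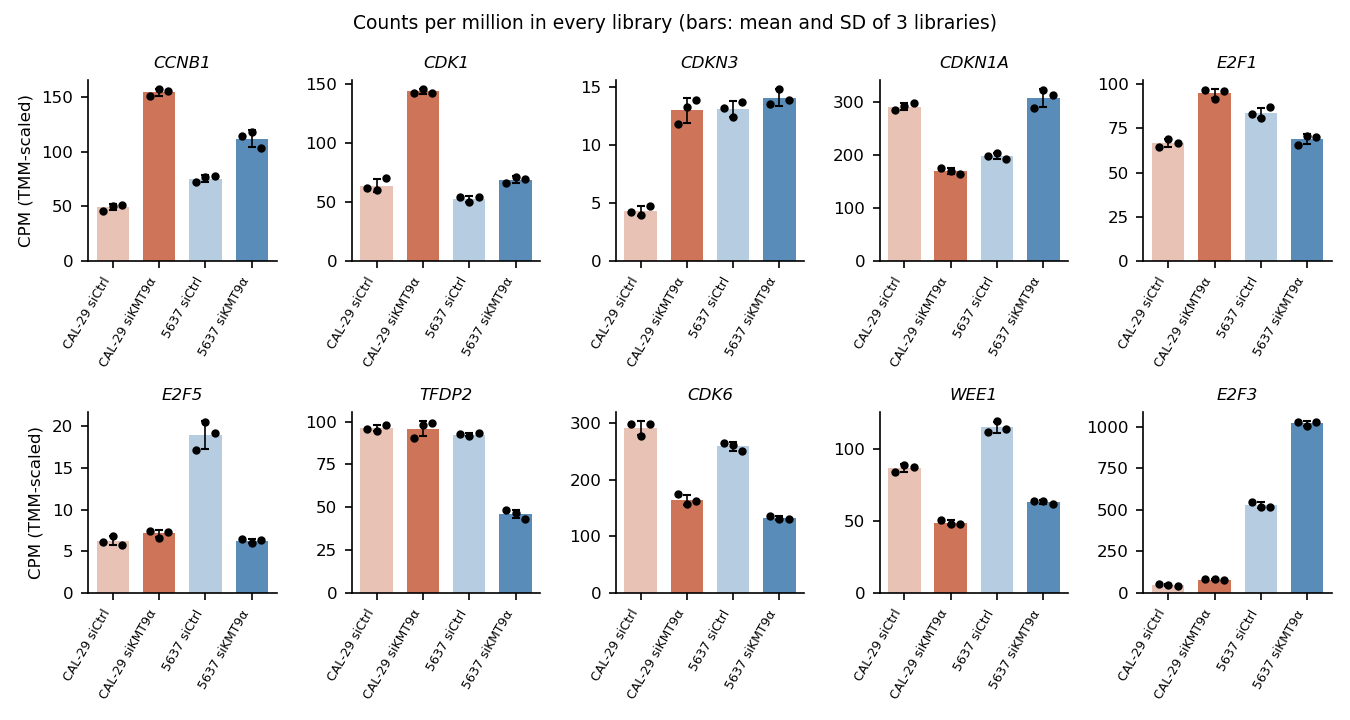
CPM (y axes, each from 0) of 10 of the genes in every library (points), with bars for the mean and error bars for the SD of the 3 libraries of each group (x axis). CDKN1A and E2F1 move in opposite directions in the lines, E2F5 and TFDP2 fall in 5637 and did not pass in CAL-29, CDK6 and WEE1 fall in both, and E2F3 in 5637 reaches 1003 to 1032 CPM with siKMT9α#1.

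Of the kinases that hold CDK1 inactive, WEE1 fell in both lines and PKMYT1 passed in neither. WEE1, the kinase that phosphorylates CDK1 and holds it inactive, had 83.6, 88.6 and 87.7 CPM with siCtrl and 50.6, 47.8 and 47.8 CPM with siKMT9α#1 in CAL-29, a remaining level of 56.2% (log2 fold change -0.83, SE 0.05, adjusted p = 8.86e-12). In 5637 it had 112, 119 and 114 CPM with siCtrl and 64.1, 63.9 and 61.7 CPM with siKMT9α#1, a remaining level of 55% (log2 fold change -0.86, SE 0.04, adjusted p = 1.11e-17). WEE1 holds no seed match in its longest or shortest annotated 3′ UTR. PKMYT1, the second kinase with this function, did not pass in either line (log2 fold changes of 0.32 and 0.02), and genes on the opposite strand overlap 31.9% of its exon bases.

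The CDC25 phosphatases remove the phosphates that WEE1 and PKMYT1 add, and all 3 rose in CAL-29 and 2 in 5637. CDC25B rose from 63.6, 68.5 and 69.8 CPM to 128, 126 and 127 CPM in CAL-29 (log2 fold change 0.91) and from 126, 136 and 136 CPM to 221, 216 and 222 CPM in 5637 (log2 fold change 0.73). CDC25A rose by 0.65 in CAL-29 and by 0.68 in 5637, with all siKMT9α#1 libraries at 47.1 to 64.8 CPM and all siCtrl libraries at 31.7 to 39.3 CPM. CDC25C, the phosphatase active at mitotic entry, rose in CAL-29 from 7.02, 7.62 and 5.67 CPM to 13.9, 13.9 and 13.4 CPM (log2 fold change 1.02) and had 8.12 to 8.81 CPM with siCtrl and 8.38 to 9.22 CPM with siKMT9α#1 in 5637 (log2 fold change 0.04).

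SKP2 directs the ubiquitin ligase SCF to p27 and FBXW7 directs it to cyclin E. SKP2 rose from 51.4, 57.8 and 54 CPM to 94.6, 95 and 93 CPM in CAL-29 (log2 fold change 0.79) and from 61.4, 62 and 60.4 CPM to 74.8, 75.2 and 75.6 CPM in 5637 (log2 fold change 0.30). FBXW7 had log2 fold changes of 0.30 and 0.40 and passed in neither line.

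The levels with siCtrl were also compared between the lines, in cells that had received the siRNA dose and reagent of their line. In a joint model of the 12 libraries, the siCtrl level of 21 of the 41 genes differed by more than 1.5-fold between CAL-29 and 5637 (edgeR's glmTreat, adjusted p below 0.05), a share close to that of all genes, of which 51.6% of 15395 differed. Of the 21, 16 were lower in CAL-29 and 5 were higher, against 25.6% lower and 25.9% higher among all genes. RB1, on chromosome 13 from 48877880 to 49173572 (GRCh37), had 46.7 ± 2.68 CPM (SD, n = 3) in CAL-29 and 5.14 ± 0.135 CPM (SD, n = 3) in 5637, a log2 difference of 3.18 (SE 0.08). E2F3, on chromosome 6 from 20402110 to 20493945, went the other way, with 47.7 ± 4.53 CPM (SD, n = 3) in CAL-29 and 539 ± 17.5 CPM (SD, n = 3) in 5637, a log2 difference of -3.50 (SE 0.05). The other genes that were higher in CAL-29 were CDKN2C, E2F2, CCND3 and RBL2, by 0.74 to 1.35 on the log2 scale.

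CDKN2A and CDKN2B, neighbours on chromosome 9 (21967751 to 21995300 and 22002902 to 22009304), had no count in any transcript of any CAL-29 library. In the siCtrl libraries of 5637 CDKN2A had 496, 488 and 517 CPM and CDKN2B had 62.5, 67.8 and 68.5 CPM. MTAP, the gene next to them (chromosome 9, 21802635 to 21937650), was looked up after these values were seen and also had no count in CAL-29 and at least 132 CPM in each siCtrl library of 5637. Against a floor of 3 counts per library, or 0.119 CPM, which covers counting error only, the levels in 5637 were at least 4105-fold higher for CDKN2A, 526-fold for CDKN2B and 1113-fold for MTAP. The transcripts of CDKN2A for p16 and for p14ARF share exons and could not be separated, and the CDKN2B antisense gene overlaps 15.3% of the exon bases.

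**Figure D3:**
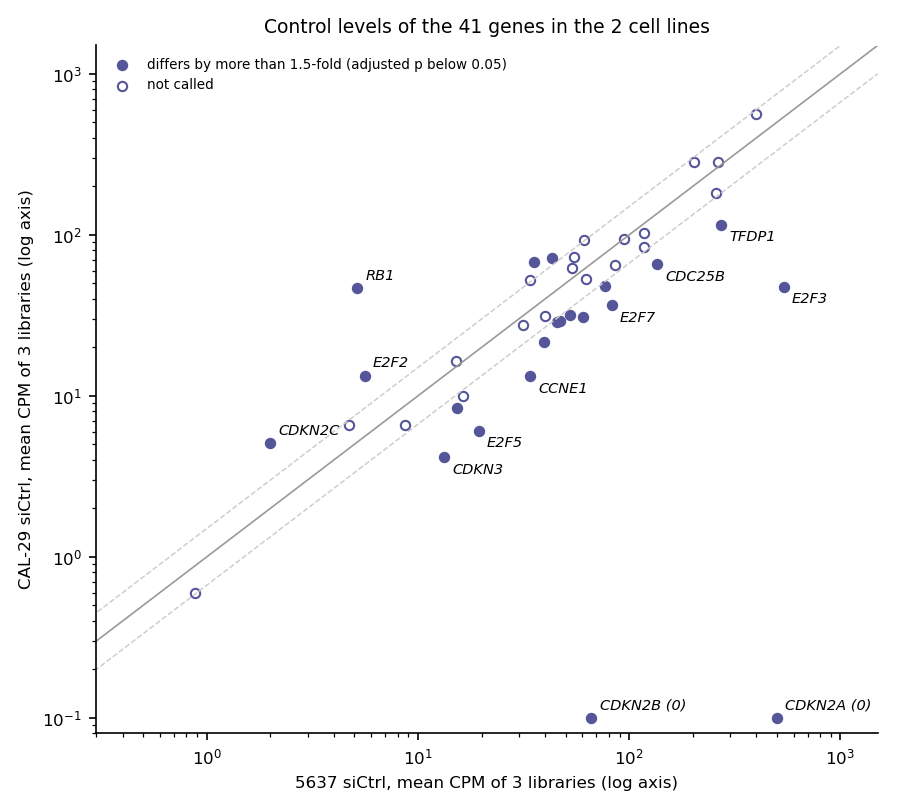
Mean CPM of each of the 41 genes in the 3 siCtrl libraries of 5637 (x axis, log scale) and of CAL-29 (y axis, log scale), with filled points for a difference of more than 1.5-fold, a solid line for equal levels and dashed lines for 1.5-fold. The points of CDKN2A and CDKN2B at the bottom stand for 0 counts in CAL-29, E2F3 lies far to the right of the line, and RB1 lies far above it.

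The response to siKMT9α#1 itself was compared between the lines in the same joint model. The fold change differed by more than 1.5-fold for 13 of the 39 genes with counts in both lines, 11 with the higher response in CAL-29 and 2 with the lower, against 5.77% and 4.96% of the 15395 genes tested (10.7% in all). The mitotic members CCNB1, CCNB2, CCNA2, CDK1, CDC25C and CDKN3 were 6 of the 11, with differences of the log2 fold changes of 0.80 to 1.51. The others were E2F1, E2F2, E2F5, E2F8 and TFDP2, with differences of 0.80 to 1.80. CDKN1A and CDKN1C had the lower response in CAL-29, by -1.41 (SE 0.06, adjusted p = 6.84e-13) and -0.95 (SE 0.15, adjusted p = 0.0241). CCNE1 was just outside the threshold (difference 0.80, adjusted p = 0.0537). The calls of E2F2 and CDKN1C, with adjusted p of 0.0328 and 0.0241, were lost on leaving out a library, E2F2 in 7 of the 12 such fits (CAL-29 siCtrl 1 or 2 or siKMT9α#1 1 or 3, and 5637 siCtrl 3 or siKMT9α#1 2 or 3) and CDKN1C in 4 (CAL-29 siCtrl 3 or siKMT9α#1 3, and 5637 siCtrl 2 or siKMT9α#1 3).

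Several of these genes started lower in CAL-29 than in 5637. On the scale shared by the lines, CDKN3 went from 4.15 to 12.8 CPM in CAL-29 and from 13.3 to 14.4 CPM in 5637, and E2F8 from 8.42 to 16.8 CPM in CAL-29 and from 15.3 to 15.8 CPM in 5637. CCNA2 went from 31 to 74.9 CPM in CAL-29 and from 60.4 to 80.9 CPM in 5637, whereas CCNB1, from 47.9 to 153 CPM in CAL-29, ended above the 115 CPM of 5637. E2F2 started higher in CAL-29, at 13.3 CPM against 5.59 CPM. The difference in siCtrl level and the difference in response share the siCtrl libraries, so that no relation between them was tested.

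**Figure D4:**
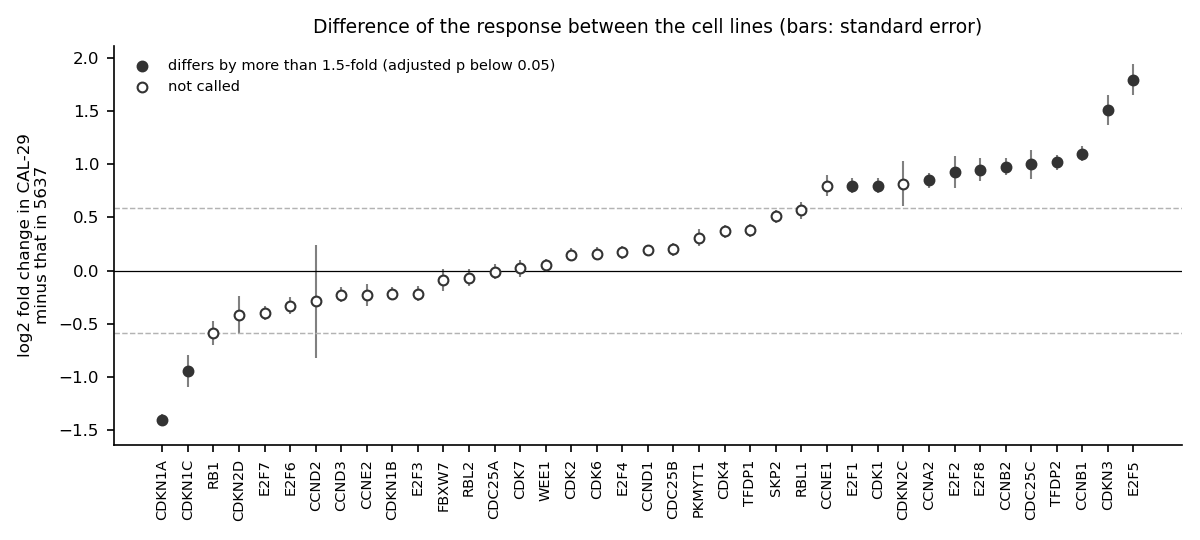
Log2 fold change in CAL-29 minus that in 5637 (y axis, bars for 1 SE) for the 39 genes with counts in both lines, ordered by value (x axis), with dashed lines at a 1.5-fold difference and filled points for differences past it. CDKN1A lies lowest at -1.41, E2F5 highest at 1.80, and CCNB1, CCNB2, CDC25C, CDKN3, CCNA2 and CDK1 lie above the upper dashed line, among E2F factors and TFDP2.

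The genes that the engine acts on were examined as lists. Of 26 S phase genes known as E2F targets, 21 were upregulated and 2 downregulated in CAL-29 (median log2 fold change 0.55), whereas in 5637 1 was upregulated and 8 were downregulated (median -0.10). Over the fits without 1 library, 14 to 21 were upregulated in CAL-29 and 6 to 9 downregulated in 5637. The share past the threshold was 88.5% in CAL-29 and 34.6% in 5637, the latter close to the 35.6% of all genes. ORC1, a subunit of the origin recognition complex, was the gene that rose in 5637 (log2 fold change 0.56) and it rose by 1.01 in CAL-29. The replicative helicase subunit MCM6 fell in both lines (log2 fold changes of -0.59 in CAL-29 and -1.63 in 5637), and so did UHRF1, which helps to maintain DNA methylation (-0.37 and -1.16). MCM3 and PCNA, the sliding clamp of replication, rose in CAL-29 by 0.68 and 0.67 and fell in 5637, with log2 fold changes of -0.36 and -0.25. The response was higher in CAL-29 for 12 of the 26 and lower for none at an adjusted p below 0.05 of glmTreat, against 5.77% and 4.96% of all 15395 genes. No link between the changes of the E2F factors and of these genes was tested.

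Most of the mitotic genes rose in CAL-29, and 11 of 19 did in 5637. Of 19 mitotic kinases and other genes of G2 and M phase, 17 were upregulated and none was downregulated in CAL-29 (median log2 fold change 1.15, lowest value 0.52), and 11 were upregulated and 1, BIRC5, was downregulated in 5637 (median 0.39). The share past the threshold was 89.5% in CAL-29 and 63.2% in 5637, against 30.0% and 35.6% of all genes. In 5637, 1 of the 11 upregulated genes also passed 0.58 on the log2 scale. By glmTreat 12 of the 19 had a higher response in CAL-29 and none a lower, against 5.77% and 4.96% of all genes. The kinases PLK1 and AURKA, which promote mitotic entry and spindle assembly, had log2 fold changes of 2.07 and 1.73 in CAL-29 and 0.56 and 0.51 in 5637. MKI67, the gene of the proliferation antigen Ki-67, rose by 1.15 in CAL-29 and by 0.60 in 5637. FOXM1, the factor that activates many of these genes, rose by 1.62 and 0.85, while its MuvB partners LIN9, LIN37, LIN52 and LIN54 did not pass in either line. In CAL-29, LIN9 and LIN37 had log2 fold changes of 0.64 and -0.70 (adjusted p = 1e-05 and 9.45e-05), and their groups did not overlap. RBBP4, of the same list, fell in 5637 (log2 fold change -0.45) and did not pass in CAL-29 (-0.06). Of the 8 genes of the MuvB, B-MYB and FOXM1 list, 2 were upregulated and 1 was downregulated in CAL-29, and 1 and 2 in 5637, or 37.5% in each line, against 30.0% and 35.6% of all genes. MYBL1 fell in both lines, with log2 fold changes of -0.99 and -1.37.

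Among 25 subunits and partners of the ubiquitin ligases APC/C and SCF, 9 were upregulated and 2 downregulated in CAL-29, and 5 and 3 in 5637, or 44% and 32% of the list against 30.0% and 35.6% of all genes. CDC20, the activator of the APC/C in mitosis, rose by 1.45 in CAL-29 and had a log2 fold change of 0.06 in 5637. The other activator, FZR1, fell in CAL-29 (log2 fold change -0.81) and had a value of 0.05 in 5637. The subunit ANAPC13 fell in both lines (-1.71 and -1.81). Cyclins and CDKs outside the engine, of which many act in transcription, were mixed, with 6 up and 5 down of 28 tested in CAL-29 and 7 up and 6 down of 29 in 5637 (39.3% and 44.8%). CDK17 and CCNG1 fell in both lines, with log2 fold changes of -1.70 and -1.10 in CAL-29 and -1.09 and -1.01 in 5637.

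The seed matches printed above were set beside these changes. Among all genes tested with an annotated 3′ UTR, ACATTCA occurs in the longest 3′ UTR of 15.1% in CAL-29 and 15.4% in 5637, of 28.9% and 31.8% of the downregulated DEGs, and of 9.03% and 7.94% of the upregulated DEGs. Of the engine genes downregulated in 5637, 3 of 5 hold it (CDK6, E2F5 and TFDP2), and of those downregulated in CAL-29, 1 of 3 does (CDK6). Of the upregulated engine genes, CCNA2 was the one that holds it in either line. E2F5 and TFDP2, whose matches are in the longest 3′ UTR and not in the shortest, fell in 5637 and did not pass in CAL-29. The part of the seed in these changes was not tested. siKMT9α#2, the second siRNA of the study, targets nearly the same bases of N6AMT1, and no library of it was analysed here, so that a change that follows the seed and one that follows the loss of KMT9α cannot be told apart by a second siRNA in these data. The match of the siKMT9α#2 seed, CACATTC, shares ACATTC with that of siKMT9α#1. It occurs in the longest 3′ UTR of 13.6% of genes tested in CAL-29 and 13.8% in 5637. Among downregulated DEGs the shares are 19.8% and 20.7%, and among upregulated DEGs 10.8% and 10.9%. CDK6 holds 2 such matches. The longest 3′ UTRs of CDK6, TFDP2 and E2F5 have 10219, 8085 and 656 bases, and the part of length was not tested.

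The promoters of the engine genes were searched for the motifs of E2F factors and of the MuvB complex. Sequences of 300 bases, from 250 before to 50 after the start site (RefSeq, GRCh38.p14), were at hand for 32 of the 41 genes. The E2F motif was taken as TTGGCGC on either strand. The variant TTCGCGC was counted with it. So were the forms TTCCCGC and, last of all, TTGCCGC. Any of these forms occurred in 12 of the 32 (37.5%), against 19.9% of the 11632 promoters of tested genes and 13.1% of all 27305 promoters of the table. It occurred in 9 of the 19 genes that were upregulated in CAL-29 and in 3 of the other 13, which include CDKN2A and CDKN2B, not tested there. The share among all upregulated genes was not taken, so this split has no background beside it. The cell cycle homology region (CHR), taken as TTTGAA or TTCGAA, occurred in 5 of the 32 (15.6%), against 11.3% of the promoters of tested genes and 16.6% of all promoters. The stretches below show, for each gene with a motif within 50 bases of its start site, 1 such motif in capitals.
E2F1, chr20:33686387-33686415, minus strand: gcaaaaaggatTTGGCGCgtaaaagtggc
E2F2, chr1:23531257-23531285, minus strand: cggcacgacgtTTGGCGCtaaaaaaaaaa
E2F3, chr6:20401844-20401872, plus strand: gcgggaggaccTTGGCGCgtaaaccgtat
CDK1, chr10:60778292-60778320, plus strand: ctcgcactcagTTGGCGCccgccctcctg
CDC25A, chr3:48188443-48188471, minus strand: gtggattccgtTTGGCGCcaactaggaaa
RBL1, chr20:37095995-37096023, minus strand: tttcgcgcgctTTGGCGCaggtggttgtg
E2F6, TTCCCGC on the other strand, chr2:11466130-11466158, minus strand: gtactgcgcatGCGGGAAgatggcgggcc
CCNB2, the CHR, chr15:59105105-59105134, plus strand: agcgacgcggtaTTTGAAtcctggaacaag
RBL2, the CHR, chr16:53434483-53434512, plus strand: ggcgcttcgccgTTTGAAtggctgcgggcc
E2F1, E2F2, E2F3, CDK1, CDC25A and RBL1 carry the same 7 bases. Their log2 fold changes ranged from 0.29 for RBL1, which did not pass, to 1.17 for CDK1 in CAL-29. In 5637 they ranged from -0.28 for E2F1 to 0.95 for E2F3. A link between motif and response was not tested. A match describes the letters of the window, not the binding of a factor.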

How the data were processed

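The 12 RNAseq libraries were mapped to cell line, siRNA and replicate by the sample labels. The labels do not name the siRNA against KMT9α and the table columns call it si270. Its identity as siKMT9α#1 rests on the study's results. The authors aligned reads to hg19 with STAR and counted them with Homer, and the strand setting is not given in the sources used here. The deposited tables hold estimated counts for 37400 RefSeq transcripts, in steps of 0.5, without normalization, and 3 columns of the authors' comparisons (log2 fold change, p-value, adjusted p-value) per table, which were not used.

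Of each symbol's transcripts the most counted was used (per line, or over the 12 libraries in the joint model) and its counts were rounded. R 4.3.3 and edgeR 4.0.16 were used, with filterByExpr, TMM scaling and the quasi-likelihood F test within each line. The joint model tested differences against 1.5-fold with glmTreat. Adjusted p-values are Benjamini-Hochberg values over all genes tested, and the standard error is the absolute log2 fold change divided by the square root of F. With 3 against 3 libraries an exact permutation test cannot go below p = 0.1. The biological coefficient of variation was 5.09% in CAL-29 and 3.34% in 5637.

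The 41 genes and the lists were chosen with earlier results of these data known. Genes given with library values were those past 1e-06 and with a log2 fold change of at least 0.58 in either direction in at least 1 line (24 of the 41). E2F1, RB1, CDKN1C, CDKN2A, CDKN2B, CCND1, CCND2, CCND3, CCNE2, CDK2, CDK7, CDKN2D, MTAP and the genes named from the related lists were added after their values were seen. On simulated counts the fits recovered 76% of genes changed by 0.58 on the log2 scale and 96% of those changed by 1 in CAL-29 (14540 genes), 83% and 96% in 5637 (14236 genes), and 75.5% of responses that differed by 1 (15295 genes), with 0 unchanged genes called. The simulated counts were drawn from the dispersions fitted to the data, so that they do not measure false calls in the data themselves. Alternatives were DESeq2 1.42.0 and its size factors, scaling by total counts, other filters, summed transcripts, a replicate block, other thresholds and leaving out each library. The siRNA and promoter sequences come from the study's methods and RefSeq, and sites were searched in GRCh37 transcripts with 3′ UTRs of at least 50 bases.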

Additional observations from a re-analysis of the deposited data

Results flagged for a closer look

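For 13 of the 41 genes the test of the difference itself showed a response to siKMT9α#1 that differed between CAL-29 and 5637 by more than 1.5-fold. The values are the log2 fold change in CAL-29 minus that in 5637. Among the genes of S phase and mitosis the difference was 0.85 for CCNA2, 1.10 for CCNB1, 0.98 for CCNB2, 0.80 for CDK1, 1.0 for CDC25C and 1.51 for CDKN3. Among the E2F and DP factors it was 0.80 for E2F1, 0.93 for E2F2, 1.80 for E2F5, 0.95 for E2F8 and 1.02 for TFDP2. Among the CDK inhibitors it was -1.41 for CDKN1A and -0.95 for CDKN1C. The calls of E2F2 and CDKN1C were lost in some of the fits without 1 library, as given above. CDKN1A and E2F1 are the 2 of these genes that passed 1e-06 in opposite directions in the lines. In each line all 3 siKMT9α#1 libraries of these 2 genes lay on the same side of the 3 siCtrl libraries. Cell line, siRNA dose and transfection reagent changed together, so that their parts in these differences cannot be told apart.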

How the results depend on the processing

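The counts of upregulated and downregulated engine genes kept their size within 1.5 times under the alternatives except for those given here. The 3 downregulated in CAL-29 became 5 with no filter on low counts, 6 with a replicate block, 7 at an adjusted p below 0.05 and 6 without the siCtrl library 1 of CAL-29 (range of 3 to 6 over the fits without 1 library). CCNE2 and CDKN1C were added in all 4, and RB1 in all but the fit without a filter. The 5 downregulated in 5637 became 8 at an adjusted p below 0.05 and were 4 or 5 without 1 library. Asking also for a log2 fold change of 0.58 left 7 of the 17 upregulated in 5637, 13 of the 21 S phase genes upregulated in CAL-29, 3 of the 8 downregulated in 5637 and 1 of the 11 mitotic genes upregulated in 5637, and an adjusted p below 0.05 gave 15 of those S phase genes downregulated in 5637. The alternatives for these 2 lists, and for the members outside the naming rule, were added after the values were seen. Without 1 library the engine genes upregulated were 16 to 21 in CAL-29 and 13 to 16 in 5637. The mitotic genes upregulated in these fits were 15 to 17 in CAL-29 and 10 to 12 in 5637. Leaving out a library ended the CAL-29 calls of TFDP1 (siCtrl 2, siKMT9α#1 2 or 3, log2 fold changes of 0.35 to 0.39), E2F2 (siCtrl 2 or siKMT9α#1 3, 0.72 and 0.74), and CDK7 and CDKN1B (siKMT9α#1 2 or 3, 0.48 and 0.52, and 0.42), and the 5637 calls of CCND3 (siCtrl 1 or 3 or siKMT9α#1 3, 0.35 to 0.37) and SKP2 (siKMT9α#1 3, 0.30). Summing the transcripts of every gene ended the calls of CDK7, CDKN1B, E2F2 and TFDP1 in CAL-29 and of CCNB2, CCNE1, CDK4 and E2F1 in 5637. Of these genes only TFDP1 has more than 1 transcript in the count tables, so that the counts of the others were unchanged. In that fit 3282 of all genes passed in CAL-29 and 3761 in 5637. Scaling by total counts ended the calls of CCNB2, CCND3, CCNE1 and SKP2 in 5637, and a minimum of 10 counts those of CCNB2 and CCNE1 in 5637. Against 2-fold, 3 responses differed between the lines instead of 13 and 11 siCtrl levels instead of 21, and without 1 library these counts were 11 to 13 and 19 to 22. Among the responses that differed, summing the transcripts ended the call of E2F2. Scaling by total counts ended that of CDKN1C and added CCNE1. Directions turned only for uncalled values near 0. TFDP2 in CAL-29 was 0.01 with DESeq2 or its size factors, 0.07 with total counts, 0.00 with no filter and, without 1 library, between -0.02 and 0.04 (0.02 without siCtrl 3 and 0.04 without siKMT9α#1 1). In 5637, scaling by total counts gave -0.00 for E2F8, -0.01 for CDC25C, -0.05 for TFDP1 and -0.03 for PKMYT1, a minimum of 10 counts gave -0.00 for TFDP1, and fits without 1 library gave -0.00 for CDC25C (siKMT9α#1 3, range to 0.07) and -0.00 and -0.01 for TFDP1 (siCtrl 2 and siKMT9α#1 1), out of a range of -0.01 to 0.03. The cause was not tested. With the replicate block, 6327 genes passed in CAL-29 instead of 4402 and 5378 in 5637 instead of 5104. The block gave 23 engine genes up in CAL-29, 17 up and 5 down in 5637, 14 responses that differed, and log2 fold changes of N6AMT1 of -2.01 and -2.23. The block was not run for the siCtrl levels, since its numbers lie within the lines. The labels link same-numbered siCtrl and siKMT9α#1 libraries by number alone and do not say whether they were paired. Correlations of their deviations from the group means were 0.14, 0.01 and 0.06 in CAL-29 and 0.12, -0.01 and 0.00 in 5637. Only siCtrl library 1 of each line correlated best with its own number. Counting depth limits CCND2 and CDKN2C in 5637.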
